A study of Homo sapiens with 6 samples.

Results

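The SOX factors of neural and glial lineage are 10 genes, SOX2, SOX3, SOX21, SOX4, SOX11, SOX5, SOX6, SOX8, SOX9 and SOX10, of the 36532 genes in the deposited transcript tables. They were chosen by gene symbol, and the TPM (transcript level scaled for length and depth) of all transcripts of a gene was summed. RNA was measured in 6 libraries of 4 cell lines derived from atypical teratoid rhabdoid tumors (AT/RT), which are brain tumors of childhood that typically lack the chromatin remodeling subunit SMARCB1. CHLA 02 and CHLA 05 were represented by 1 library each, and CHLA 04 and CHLA 06 by 2 technical replicates each. All cells were untreated and were kept in DMEM:F12 with 20 ng/mL EGF, 20 ng/mL basic FGF and 2% B-27, a medium used for neural stem cells. No normal neural cells and no cells with SMARCB1 restored were among the libraries. Because each line was 1 biological sample, the lines were compared without a test, and the SD of 2 technical replicates covers technical spread only.

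SOX proteins bind DNA through a high mobility group (HMG) box, a domain that bends the helix, and the family is divided into subgroups by the sequence of this box. SoxB1 factors (SOX1, SOX2 and SOX3) maintain neural progenitors, and the SoxB2 factor SOX21 counteracts them and promotes neuronal differentiation. SoxC factors (SOX4, SOX11 and SOX12) act in committed progenitors and young neurons. SoxD factors (SOX5, SOX6 and SOX13) carry no activation domain of their own and modulate other SOX proteins, and SoxE factors (SOX8, SOX9 and SOX10) specify glia, neural crest and, for SOX9, cartilage.

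The start of the HMG box is shown for all 10 genes, because it is the feature that they share and because near-identical genes can exchange reads. Each line gives the first 60 coding bases of the box, 5′ to 3′ on the strand of the gene (GENCODE 44 transcripts, GRCh38), and capitals mark the 31 bases that were the same in all 10 genes.
SOX2: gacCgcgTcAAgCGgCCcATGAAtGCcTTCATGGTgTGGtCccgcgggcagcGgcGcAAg
SOX3: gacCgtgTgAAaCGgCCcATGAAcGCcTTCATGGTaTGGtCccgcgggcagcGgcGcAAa
SOX21: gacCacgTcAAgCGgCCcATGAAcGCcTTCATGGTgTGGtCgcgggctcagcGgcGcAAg
SOX4: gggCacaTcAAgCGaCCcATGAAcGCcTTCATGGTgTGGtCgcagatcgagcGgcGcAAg
SOX11: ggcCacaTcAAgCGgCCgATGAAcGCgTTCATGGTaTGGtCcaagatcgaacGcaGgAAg
SOX5: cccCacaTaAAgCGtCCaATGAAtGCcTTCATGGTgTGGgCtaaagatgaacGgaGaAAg
SOX6: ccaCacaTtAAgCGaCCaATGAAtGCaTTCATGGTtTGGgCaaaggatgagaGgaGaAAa
SOX8: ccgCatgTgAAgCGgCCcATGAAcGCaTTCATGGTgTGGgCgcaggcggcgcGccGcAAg
SOX9: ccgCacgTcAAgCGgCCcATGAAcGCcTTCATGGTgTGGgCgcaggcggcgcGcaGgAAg
SOX10: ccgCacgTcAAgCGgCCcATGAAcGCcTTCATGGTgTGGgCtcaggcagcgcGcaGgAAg
The stretch lay at chr3:181712475-181712534 (plus strand) in the single exon of SOX2, at chrX:140504593-140504652 (minus) in that of SOX3 and at chr13:94711975-94712034 (minus) in that of SOX21. It lay at chr6:21594703-21594762 (plus) in SOX4 and at chr2:5692860-5692919 (plus) in SOX11, which also have a single exon. In the SoxD genes it was in exon 13 of 15 of SOX5 (chr12:23543263-23543322, minus) and in exon 14 of 16 of SOX6 (chr11:15989049-15989108, minus). In the SoxE genes it was in exon 1 of 3 of SOX8 (chr16:982220-982279, plus), in exon 1 of 3 of SOX9 (chr17:72121698-72121757, plus) and in exon 2 of 4 of SOX10 (chr22:37983422-37983481, minus).

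Over the whole box of 237 coding bases, identity between members ranged from 54.9% (SOX6 and SOX8) to 89.9% (SOX9 and SOX10, and also SOX8 and SOX9). SOX2 and SOX21 shared 88.6% of the bases, SOX4 and SOX11 86.9%, SOX2 and SOX3 84.8%, and SOX5 and SOX6 81.4%. The longest identical run between any 2 boxes was 60 bases, between SOX2 and SOX21, which is shorter than the 125 bp reads. No window of 125 bases from a transcript of any member occurred in a transcript of another gene, so a whole read that matched without error belonged to 1 member. Exons of 3 members overlapped exons of another gene in the annotation. These were SOX11 with AC010729.1 (74 bp, same strand), SOX6 with C11orf58 (219 bp, opposite strand) and SOX10 with POLR2F (89 bp, opposite strand). The sources used here do not state whether reads were counted by strand, so reads in those overlaps could belong to either gene.

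The 6 libraries held 10265899 to 20520229 reads on transcripts, recovered from the TPM steps, so that a single read on 1 kb of transcript added 0.117 to 0.236 TPM. Intervals are exact 95% intervals of these reads, which cover counting error alone. A gene at 0 was given the limit of 3 reads. On the log2(TPM + 1) scale, 6.52% of the genes tested differed by 2-fold or more between the technical replicates of CHLA 04, and 1.60% in CHLA 06. None of the 10 members did, but SOX4 (0.93), SOX5 (0.91), SOX6 (0.91) and SOX21 (0.85) came near 1 in CHLA 04. The median absolute difference of all genes tested was 0.33 there. In plain TPM, SOX2 differed by 2.72-fold in CHLA 04 (5 and 3 reads) and SOX9 by 2.21-fold in CHLA 06 (2 and 1 reads). Replicate 1 of CHLA 04 had the higher value for 8 of the 9 members that passed the filter of 1 TPM in any library.

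CHLA 02 stood between CHLA 04 and CHLA 06 across the transcriptome, which touches every comparison that uses it. Of the 263 genes at 20 TPM or more in CHLA 04 and at 1 TPM or less in CHLA 06, all 263 were above 1 TPM in CHLA 02, at a median of 37.0% of the way from CHLA 06 to CHLA 04 (5th to 95th percentile 14.3% to 89.7%). Of the 214 genes with the opposite pattern, all 214 were above 1 TPM in CHLA 02. In CHLA 05 this held for 247 of the 263 and for 84 of the 214 genes. Genes at 10 TPM or more in 1 line and at 1 TPM or less in the other lines numbered 0 for CHLA 02, 1 for CHLA 04, 73 for CHLA 05 and 1 for CHLA 06. With CHLA 02 left out they numbered 36 for CHLA 04, 76 for CHLA 05 and 196 for CHLA 06. SOX6, SOX8, SOX9, SOX11 and SOX21 were among the 263 genes, and stood at 13.3%, 20.2%, 30.1%, 34.5% and 51.7% of the way in CHLA 02. A line with such intermediate levels and a library that holds RNA of other lines cannot be told apart from these values, so each CHLA 02 level is that of the library labelled CHLA 02. The part that this position has in the SOX levels was not tested, and 3 of the 6 pairs of lines rest on that library.

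**Figure D1:**
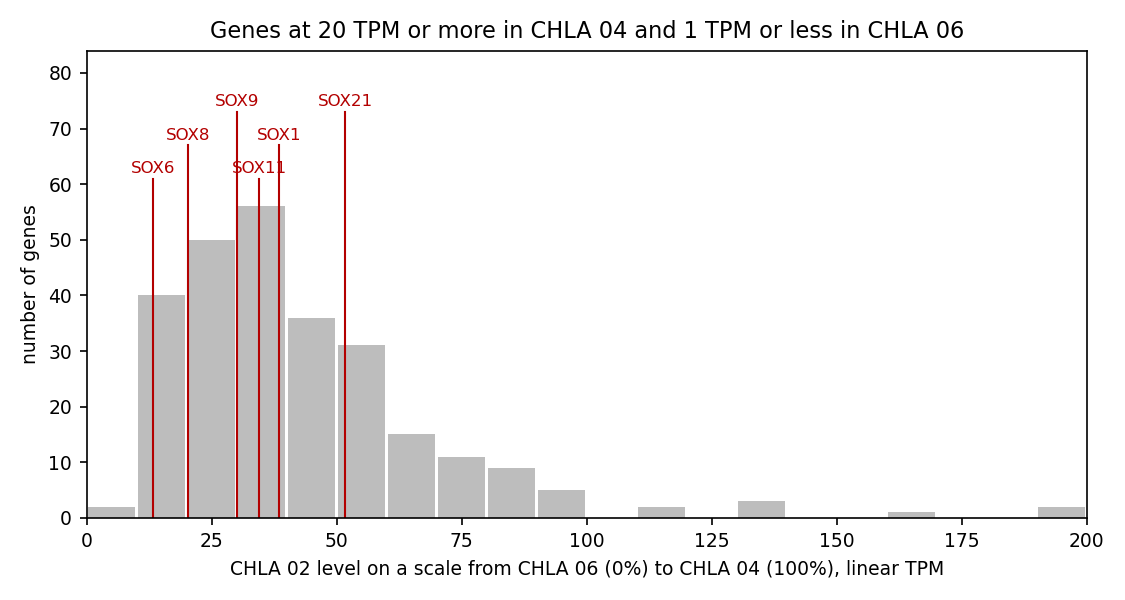
Number of genes (vertical axis) by the position of CHLA 02 on a linear TPM scale from CHLA 06 (0%) to CHLA 04 (100%), for the 263 genes at 20 TPM or more in CHLA 04 and at 1 TPM or less in CHLA 06, with the position of SOX genes marked by red lines. The median is 37.0%, SOX6 stands lowest of the SOX genes at 13.3% and SOX21 highest at 51.7%.

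Among the SoxB1 genes, SOX2, the factor best known from pluripotent and neural stem cells, was low in every library. SOX2 (ENSG00000181449, 1 exon, chr3:181711924-181714436) was measured at 0.119 TPM in CHLA 02 (2 reads), 0.470 and 0.173 TPM in CHLA 04 (5 and 3 reads), 4.03 TPM in CHLA 05 (66 reads) and 0 and 0.186 TPM in CHLA 06 (0 and 4 reads). Only CHLA 05 exceeded 1 TPM, with an interval of 3.11 to 5.12 TPM that did not meet the interval of any other library. SOX3 (ENSG00000134595, chrX:140502987-140505503), a SoxB1 gene with the same role in progenitors, was at 0.475 TPM in CHLA 02, 2.35 and 1.67 TPM in CHLA 04, 2.74 TPM in CHLA 05 and 0 in both CHLA 06 libraries. Against a CHLA 06 limit of 3 reads per library (0.154 TPM), the SOX3 level was 3.09-fold in CHLA 02, 13.0-fold in CHLA 04 and 17.8-fold in CHLA 05. These ratios leave out the counting error of the higher line, which in CHLA 02 spans 0.205 to 0.936 TPM on 8 reads.

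SOX21, the SoxB2 gene (ENSG00000125285, 1 exon, chr13:94709622-94712399), was higher than both in CHLA 02, CHLA 04 and CHLA 05. It was at 29.4 TPM in CHLA 02, 73.5 and 40.3 TPM in CHLA 04, 108 TPM in CHLA 05 and 0 and 0.211 TPM in CHLA 06. The CHLA 06 values rest on 0 and 5 reads, against 547 to 1957 reads in the other libraries. The difference between the CHLA 04 replicates (56.9 ± 23.5 TPM, SD, n = 2) was larger than their counting intervals (68.6 to 78.5 and 37.5 to 43.2 TPM).

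SOX1, the SoxB1 gene outside the 10, was the most abundant of the subgroup. It was at 81.8 TPM in CHLA 02, 197 and 229 TPM in CHLA 04, 173 TPM in CHLA 05 and 0.0455 and 0 TPM in CHLA 06. The remaining gene of both subgroups, SOX14, had no read in any library. The sum of the 5 SoxB genes was 112 TPM in CHLA 02, between 271 and 287 TPM in CHLA 04 and CHLA 05, and at most 0.397 TPM in CHLA 06. SOX2-OT, the long non-coding RNA whose span holds SOX2 in an intron on the same strand, did not have the profile of SOX2. It was at 165 TPM in CHLA 02, 367 and 468 TPM in CHLA 04, 9.82 TPM in CHLA 05 and 1.43 and 0.822 TPM in CHLA 06, so CHLA 05 held the highest SOX2 level and a SOX2-OT level far under those of CHLA 02 and CHLA 04. No exon of SOX2-OT overlaps SOX2. SOX21-AS1, transcribed beside SOX21, was at 7.0 TPM in CHLA 02, 12.2 and 9.52 TPM in CHLA 04, 22.7 TPM in CHLA 05 and 0 and 0.178 TPM in CHLA 06, the order of SOX21 itself.

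SOX4, a SoxC gene of broadly proliferating and early neuronal cells (ENSG00000124766, 1 exon, chr6:21592769-21598619), had the highest mean TPM of the 10 in all 4 lines. It was at 78.1 TPM in CHLA 02, 240 and 125 TPM in CHLA 04, 322 TPM in CHLA 05 and 33.1 and 24.0 TPM in CHLA 06. SOX4 was the only member above 1 TPM in CHLA 06, where it rested on 1498 and 1198 reads. In CHLA 04 it did not stand apart from SOX8, which was higher in replicate 2 (131 TPM). The CHLA 04 replicates differed by 1.92-fold for SOX4 (182 ± 81.0 TPM, SD, n = 2), more than counting error, and those of CHLA 06 by 1.38-fold (28.5 ± 6.44 TPM).

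SOX11, the second SoxC member (ENSG00000176887, 1 exon, chr2:5692667-5701385), is a factor of immature neurons. It was at 12.2 TPM in CHLA 02, 38.4 and 32.3 TPM in CHLA 04, 41.7 TPM in CHLA 05 and 0 and 0.0269 TPM in CHLA 06. CHLA 06 held 2 reads of it in all, against 712 to 2375 reads in each other library, and CHLA 05 lay just above the higher CHLA 04 library. SOX12, the remaining SoxC gene, was at 45.6 TPM or more in all libraries, with 58.7 TPM in CHLA 02, 123 and 66.2 TPM in CHLA 04, 45.6 TPM in CHLA 05 and 85.8 and 66.0 TPM in CHLA 06. Of the 3 SoxC genes, SOX12 was past 2-fold in none of the 6 pairs of lines. SOX4 and SOX12 together made up 94.6% and 92.9% of the TPM of all 19 SOX genes in the CHLA 06 libraries, and 27.5% to 43.6% in the others.

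**Figure D2:**
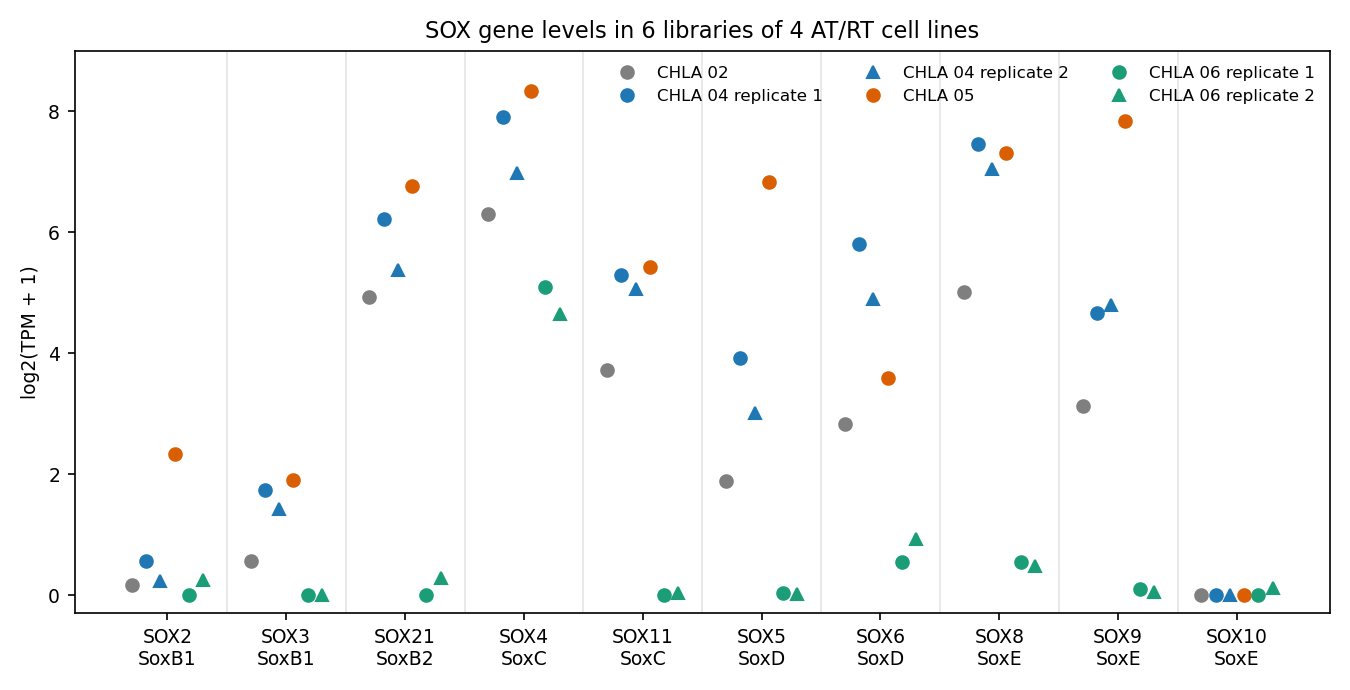
Level of each of the 10 SOX genes on the log2(TPM + 1) scale (vertical axis) in the 6 libraries, with genes ordered by subgroup along the horizontal axis and 1 point per library, where circles and triangles of one color are technical replicates 1 and 2 of a line. CHLA 06 is near 0 for all genes but SOX4 (33.1 and 24.0 TPM), and CHLA 05 stands apart at the top for SOX2, SOX5 and SOX9.

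The SoxD members differed in which line held the highest level. SOX5 (ENSG00000134532, 16 transcripts, chr12:23529500-23951032), which modulates SOX9 and controls neuronal and oligodendroglial timing, was at 2.68 TPM in CHLA 02, 14.2 and 7.09 TPM in CHLA 04, 112 TPM in CHLA 05 and 0.0185 and 0.0168 TPM in CHLA 06. CHLA 06 had 1 read in each library, and CHLA 05 had 3554. SOX6 (ENSG00000110693, 17 transcripts, chr11:15966449-16739591), which acts with SOX5 in cartilage and in the oligodendrocyte lineage, was at 6.13 TPM in CHLA 02, 54.6 and 28.7 TPM in CHLA 04, 11.0 TPM in CHLA 05 and 0.462 and 0.892 TPM in CHLA 06. Both CHLA 04 libraries were above CHLA 05 for SOX6, and CHLA 05 was above both of them for SOX5. SOX13, the third SoxD gene, was at 2.70 TPM in CHLA 02, 12.1 and 6.22 TPM in CHLA 04, 64.4 TPM in CHLA 05 and 1.54 and 0.995 TPM in CHLA 06, with CHLA 05 at the top as for SOX5.

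Most SOX5 signal in CHLA 05 came from ENST00000546136, a transcript of 6975 bp with 14 exons. It held 69.8 of the 112 TPM (62.3%), and 39.2%, 22.5% and 42.5% of the smaller totals in CHLA 02 and in the CHLA 04 libraries. ENST00000537393, with 15 exons, was next among the longer transcripts, at 6.09 TPM in CHLA 05. SOX6 was divided over many transcripts. ENST00000396356, the longest with 8865 bp and 16 exons, was at 1.05 TPM in CHLA 02, 5.01 and 4.67 TPM in CHLA 04, 2.14 TPM in CHLA 05 and 0.0583 and 0.0396 TPM in CHLA 06. A short SOX6 transcript of 574 bp, ENST00000527840, was at 11.9 TPM in replicate 1 and at 1.77 TPM in replicate 2 of CHLA 04, on 29 and 7 reads. The sum for SOX6 differed by 1.90-fold between those replicates, more than the longest transcript did.

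Reads on long terminal repeat (LTR) elements came from a separate mapping by the authors, with 355302 to 511408 reads per library. Only SOX5 and SOX6, whose introns are long, held LTR elements in their spans, so no such reads could be counted inside the other members. The span of SOX5 held 25 elements. The 4 on the strand of the gene had 5 reads in CHLA 02, 3 and 5 reads in CHLA 04, 81 reads in CHLA 05 and none in CHLA 06, and the 21 on the other strand had 1 read in all libraries together. The span of SOX6 held 69 elements. The 30 on the strand of the gene had 29 reads in CHLA 02, 78 and 56 reads in CHLA 04, 18 reads in CHLA 05 and 2 and 4 reads in CHLA 06, and the 39 on the other strand had 22 reads in all. The line with the most reads on LTR elements was thus the line with the most transcript signal, CHLA 05 for SOX5 and CHLA 04 for SOX6. No element had a read in every library. The elements with the most reads, which were chosen after their values were seen, were intronic and on the strand of the gene. A THE1B element at chr12:23725217-23725581 in SOX5 had 37 of its 43 reads in CHLA 05, and an MER66C element at chr11:16553133-16553613 in SOX6 had 11 and 12 of its 30 reads in CHLA 04.

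**Figure D3:**
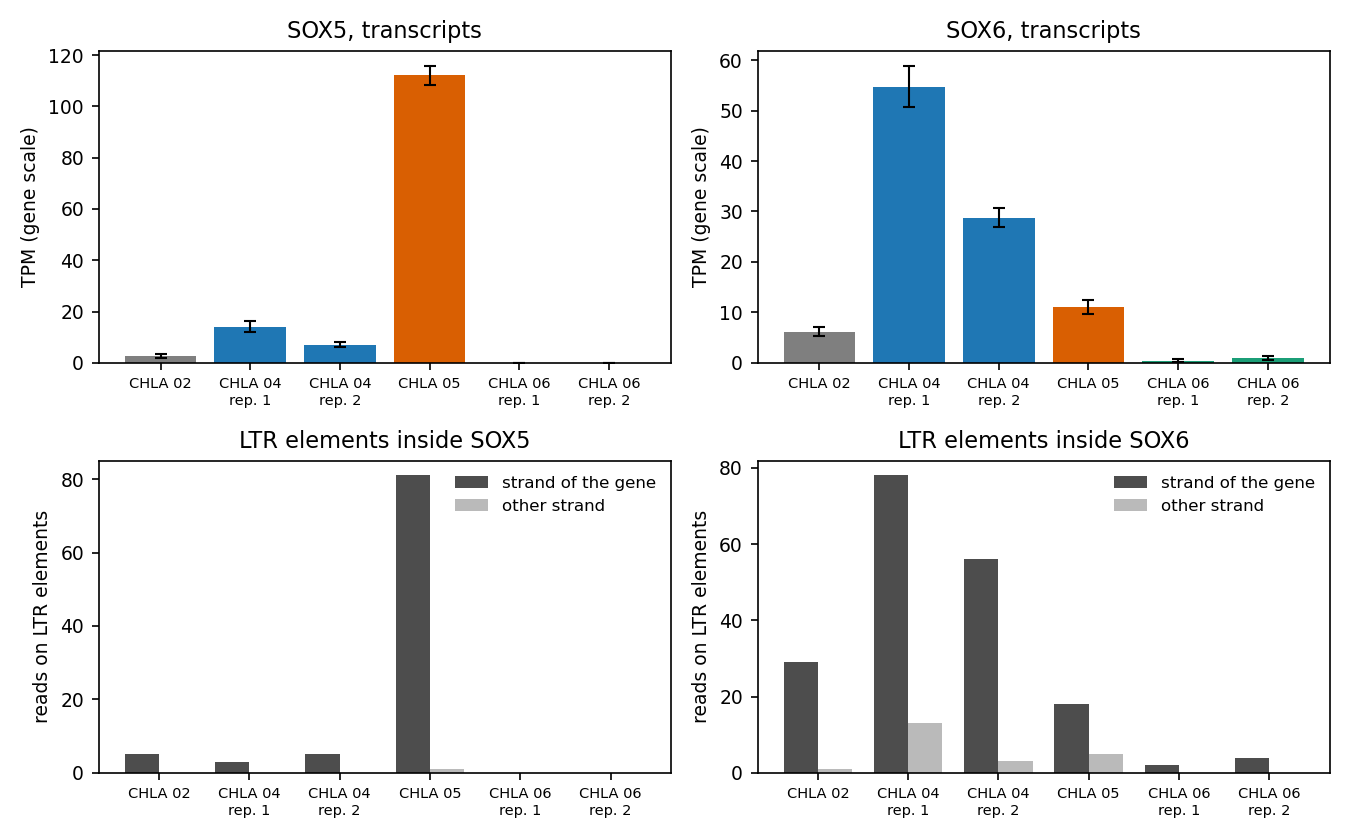
Upper panels show the TPM of SOX5 (left) and SOX6 (right) in the 6 libraries with exact 95% counting intervals as error bars, and lower panels show the recovered reads on LTR elements inside each gene, by strand, in the same order of libraries. SOX5 peaks in CHLA 05 in both panels (112 TPM and 81 reads), and SOX6 in CHLA 04 (54.6 and 28.7 TPM, 78 and 56 reads on the strand of the gene).

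The SoxE members ranged from nearly absent to 228 TPM. SOX8 (ENSG00000005513, chr16:981808-986979), which acts in glia alongside its paralogs, was at 31.3 TPM in CHLA 02, 175 and 131 TPM in CHLA 04, 158 TPM in CHLA 05 and 0.452 and 0.387 TPM in CHLA 06. The CHLA 05 value lay between the CHLA 04 replicates (153 ± 31.4 TPM, SD, n = 2), and CHLA 06 rested on 12 and 13 reads. ENST00000293894, with 3 exons, held 73.9% to 77.3% of SOX8 TPM in the 4 libraries outside CHLA 06. The other transcript, ENST00000566034, which has 2 exons, held the remaining share.

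SOX9, which starts gliogenesis in the neural tube and cartilage formation elsewhere (ENSG00000125398, 3 exons, chr17:72121020-72126420), was at 7.71 TPM in CHLA 02, 24.3 and 26.7 TPM in CHLA 04, 228 TPM in CHLA 05 and 0.0657 and 0.0297 TPM in CHLA 06. CHLA 05 held 5866 reads of it and the CHLA 06 libraries 2 and 1. The CHLA 04 replicates agreed within counting error (25.5 ± 1.67 TPM, SD, n = 2). SOX9-AS1, a non-coding neighbor on the opposite strand with no shared exon sequence, was at 1.0 TPM in CHLA 02, 4.16 and 1.40 TPM in CHLA 04, 5.94 TPM in CHLA 05 and 0 in both CHLA 06 libraries.

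SOX10, the factor of oligodendrocytes, Schwann cells and neural crest (ENSG00000100146, 5 transcripts, chr22:37970686-37987422), had no read in 5 libraries and 2 reads (0.0816 TPM) in replicate 2 of CHLA 06. At this depth a count of 0 allows up to 0.135 to 0.246 TPM in those 5 libraries. SOX10 was the only member that did not pass the filter, so 9 of the 10 members could be counted in the comparisons between lines.

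Within the lines, the order of levels was SOX4, SOX8, SOX21, SOX11, SOX9, SOX6 and SOX5 from 78.1 to 2.68 TPM in CHLA 02, where the intervals of SOX8 and SOX21 and those of SOX9 and SOX6 overlapped. In CHLA 04 it was SOX4, SOX8, SOX21, SOX6, SOX11, SOX9 and SOX5, and SOX21 was not separated from SOX6 nor SOX6 from SOX11. In CHLA 05 it was SOX4, SOX9, SOX8, SOX5, SOX21, SOX11 and SOX6, with only SOX5 and SOX21 overlapping. SOX9 and SOX5 thus ranked 2 and 4 in CHLA 05, but 5 and 7 in CHLA 02 and 6 and 7 in CHLA 04. In CHLA 06 the members below SOX4, from 0.677 TPM for SOX6 down to 0 for SOX3, all overlapped with their neighbors in the order. The 10 members summed to 168 TPM in CHLA 02, 623 and 393 TPM in CHLA 04, 988 TPM in CHLA 05 and 34.1 and 25.8 TPM in CHLA 06. They were 53.6%, 65.1%, 56.5%, 77.7%, 27.1% and 26.6% of the TPM of all 19 SOX genes in those libraries, and 7, 8, 8, 9, 1 and 1 of them reached 1 TPM. Outside the neural and glial subgroups, SOX17, an endodermal and endothelial factor, was at 2.76 and 2.30 TPM in CHLA 06, at 0.192 TPM in CHLA 02 and at 0 elsewhere. SOX7, SOX18 and SOX30 stayed below 1 TPM in every library, and SOX15 had at most 1.30 TPM.

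**Figure D4:**
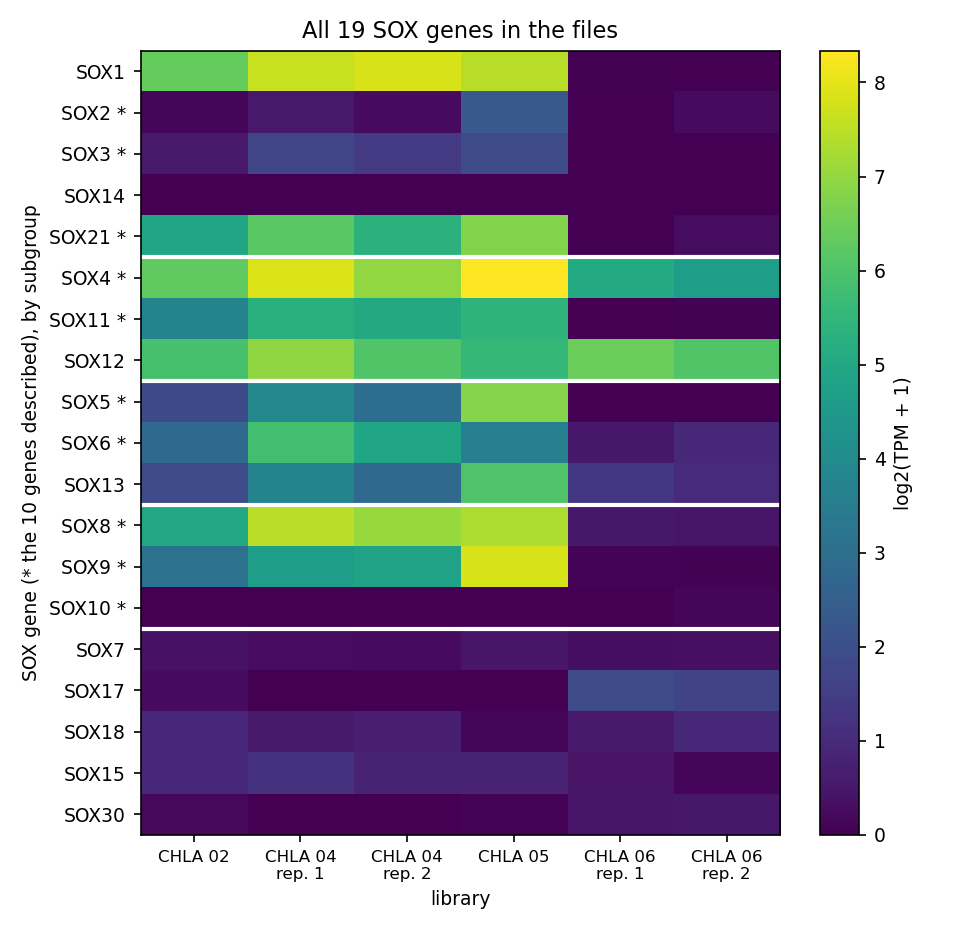
Heat map of log2(TPM + 1) for all 19 SOX genes in the files (rows, grouped by subgroup, with an asterisk for the 10 genes described) in the 6 libraries (columns). SOX4 and SOX12 are the only genes above 10 TPM in CHLA 06, and SOX5 and SOX9 are brightest in CHLA 05 (112 and 228 TPM).

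Differences between lines were taken on the mean log2(TPM + 1) scale, which understates the change of low genes, and a gene was counted when its difference was 1 or more (2-fold) among the 16343 genes with at least 1 TPM in a library. In bulk RNA, fewer cells with a transcript and less of it per cell cannot be told apart. Pairs that share a line share its libraries, so their counts are not independent.

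CHLA 06 was lower than CHLA 04 for 8 of the 10 members and higher for none, where 20.2% of all genes tested were lower and 14.5% higher. The largest differences were those of SOX8 (−6.75), SOX21 (−5.65), SOX11 (−5.16), SOX9 (−4.66) and SOX6 (−4.61), followed by SOX5 (−3.44), SOX4 (−2.58) and SOX3 (−1.58). SOX2 differed by −0.27, with overlapping libraries. The median of the 10 members was −4.03, and that of all genes tested was −0.21. CHLA 05 was higher than CHLA 06 for 9 of the 10 and lower for none, against 19.4% and 11.4% of all genes. The difference was 7.78 for SOX9, 6.81 for SOX8, 6.80 for SOX5, 6.63 for SOX21, 5.40 for SOX11, 3.47 for SOX4, 2.85 for SOX6, 2.21 for SOX2 and 1.90 for SOX3. The median was 4.43, and 0.19 over all genes.

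Between CHLA 05 and CHLA 04, 3 members were higher in CHLA 05 and 1 was lower, against 12.1% and 8.79% of all genes. SOX5 (3.35), SOX9 (3.11) and SOX2 (1.94) were higher and SOX6 was lower (−1.76). SOX2 passed the filter of 1 TPM through CHLA 05 alone (4.03 TPM), so it could enter the count only as a gene high in that line. The same holds for SOX2 in the other pairs that include CHLA 05. SOX21 (0.98) and SOX4 (0.89) were near the threshold, and passed it (1.40 and 1.36) when replicate 1 of CHLA 04 was left out, which raised the count from 4 to 6. SOX3 (0.32), SOX11 (0.24) and SOX8 (0.06) were not past 2-fold. The median was 0.61, against 0.00 over all genes.

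CHLA 02 was lower than CHLA 04 for 7 members and higher for none, where 10.1% of all genes were lower and 10.7% higher. SOX6 (−2.51) and SOX8 (−2.24) differed most, and SOX21 (−0.86) and SOX2 (−0.23) were not past 2-fold. Without replicate 1 of CHLA 04 the count was 5, since SOX3 (−0.86) and SOX4 (−0.67) were no longer past 2-fold. Against CHLA 06, CHLA 02 was higher for 7 members and lower for none (9.56% and 2.78% of all genes), led by SOX21 (4.79) and SOX8 (4.51). Against CHLA 02, CHLA 05 was higher for 8 members and lower for none (13.1% and 11.2% of all genes), led by SOX5 (4.94) and SOX9 (4.72), while SOX6 (0.75) was not past 2-fold. The medians of the members in these 3 pairs were −1.30, 1.98 and 1.94, and those of all genes were −0.13, 0.05 and 0.08.

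**Figure D5:**
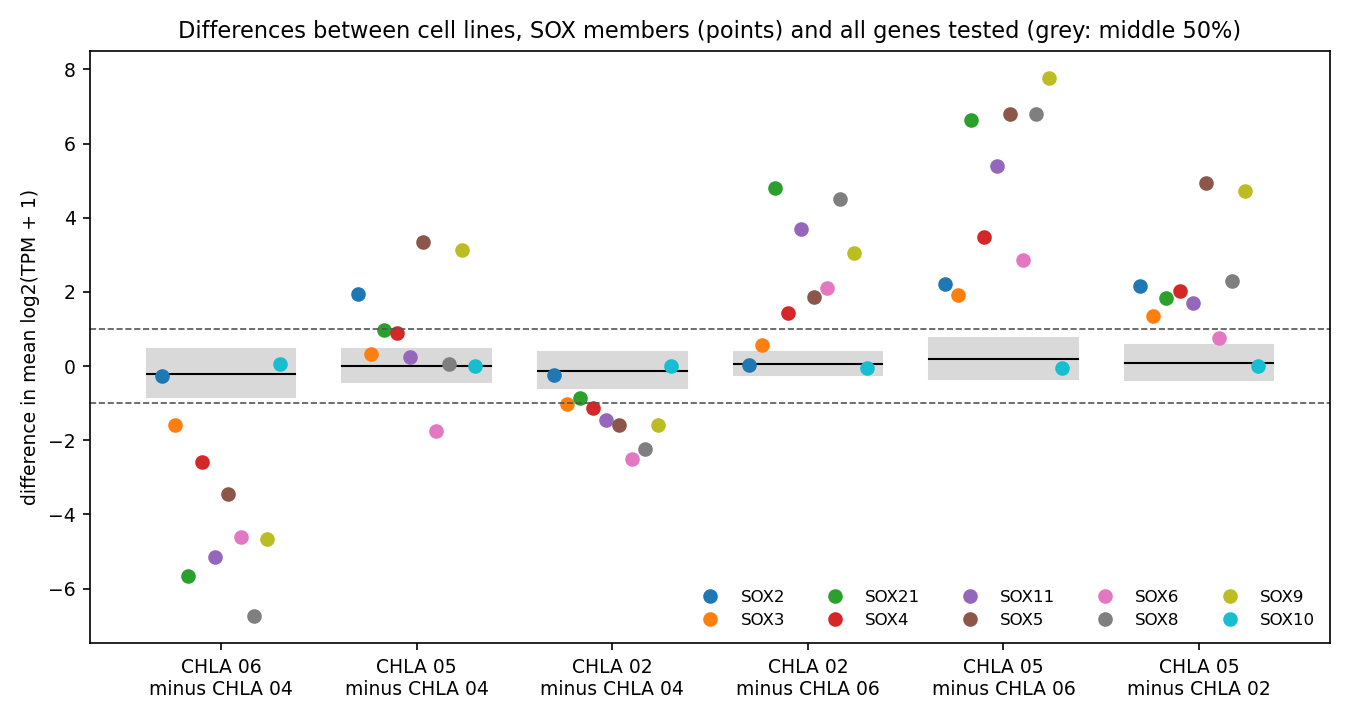
Difference in mean log2(TPM + 1) between 2 cell lines (vertical axis) for the 10 SOX genes (points, colored by gene) in the 6 pairs of lines, with the middle 50% of the 16343 genes tested as a grey box, their median as a black line and the 2-fold threshold as dashed lines. In CHLA 06 minus CHLA 04 the members other than SOX2 (−0.27) and SOX10 lie below the box (median of all 10, −4.03). In CHLA 05 minus CHLA 06 those other than SOX10 lie above it (median of all 10, 4.43).

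Over the 4 lines, the range of the mean log2(TPM + 1) was 7.78 for SOX9, 6.81 for SOX8, 6.80 for SOX5, 6.63 for SOX21 and 5.40 for SOX11, followed by 4.61 for SOX6, 3.47 for SOX4, 2.21 for SOX2 and 1.90 for SOX3. The median range of all genes tested was 1.0. Profiles were set beside each other by the Euclidean distance of log2(TPM + 1) over the 6 libraries after centering. Among the members the closest were SOX11 and SOX21 (1.31) and SOX21 and SOX8 (1.41), which are of different subgroups, while SOX5 and SOX9 lay at 1.55.

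The gene with the profile most like that of SOX8 was MYCN, a growth-promoting transcription factor of neural progenitors (distance 0.53), at 26.3 TPM in CHLA 02, 113 and 69.6 TPM in CHLA 04, 109 TPM in CHLA 05 and 0.0497 and 0.0900 TPM in CHLA 06. IRS2, an adaptor of insulin signaling, was closest to SOX21 (0.60), and GFAP, the astrocyte intermediate filament gene, was also among the 5 closest (0.94). ZNF608 (0.39), PXDN and TFRC were closest to SOX11. GAL3ST4 (0.55) and MDGA1 were among the 5 closest to SOX4. RGS16 (0.69), NLGN4X, ALCAM and CADM1, of which the last 3 encode cell adhesion proteins, were closest to SOX5. NLGN4X was also among the 5 closest to SOX9, where TLE4 (0.70), a transcriptional corepressor gene, came first and PSD3 (0.72) next. CSMD3 (0.43), GAS1, an antagonist of growth and modulator of hedgehog signaling, and MAGI2 were closest to SOX6, and share its peak in CHLA 04. For SOX2, BMS1P14 (0.27), ANKRD18A, SLC7A10, MIR497HG and SATB1 were closest, all with their highest TPM in CHLA 05. All these neighbors were picked by closeness over the same 6 libraries, so a peak line shared with the member follows from that choice.

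The other genes of the lineages in which these factors act were taken from lists of known markers. Of 10 genes listed as partner factors of SOX proteins, 6 were lower in CHLA 06 than in CHLA 04 by 2-fold or more and none was higher, against 20.2% and 14.5% of all genes. POU3F2, a POU factor that acts with SOX2 and SOX11 at neural enhancers, was at 48.9 TPM in CHLA 02, 89.1 and 74.6 TPM in CHLA 04, 102 TPM in CHLA 05 and 0.0264 and 0.0478 TPM in CHLA 06. POU3F4 was at 25.8 TPM in CHLA 02 and 60.3 and 47.5 TPM in CHLA 04, but at 0 in CHLA 05 and at 0 and 0.0302 TPM in CHLA 06. CHD7, a chromatin remodeler, was highest in CHLA 05 (141 TPM) and between 26.0 and 47.8 TPM elsewhere.

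Of 12 genes of neural stem cells and radial glia, 8 were lower and 1 (VIM) was higher in CHLA 06 than in CHLA 04, against 20.2% and 14.5% of all genes. FABP7, the fatty acid binding protein of radial glia, was at 756 TPM in CHLA 02, 2236 and 4102 TPM in CHLA 04, 1400.1 TPM in CHLA 05 and 0.566 and 1.43 TPM in CHLA 06. Of 13 neuronal genes, 8 were lower and none was higher in the same pair, beside the same shares of all genes. MAP2, which encodes a microtubule-associated protein of dendrites, was at 298 TPM in CHLA 02, 745 and 624 TPM in CHLA 04, 915 TPM in CHLA 05 and 7.20 and 5.41 TPM in CHLA 06, the direction of SOX4 and SOX11. TUBB3, the neuronal tubulin gene, was at 205 TPM or more in all 6 libraries and was not past 2-fold. Other genes of the neuronal list were near absent from every line. DCX, NEUROD1, RBFOX3 and STMN2, named after their values were seen, stayed at 1.21 TPM or less throughout.

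The astrocyte list had 4 of 8 genes higher and 1 lower in CHLA 05 than in CHLA 04, the pair in which SOX9 was higher, where 12.1% and 8.79% of all genes were. GFAP was at 23.9 TPM in CHLA 02, 45.3 and 47.9 TPM in CHLA 04, 151 TPM in CHLA 05 and 0.0419 and 0.0379 TPM in CHLA 06. NFIA, a glial factor that acts with SOX9, was at 191 TPM in CHLA 05 and at 37.9 to 46.4 TPM in all other libraries, CHLA 06 included. NFIB went the other way, at 135 TPM in CHLA 05 and 218 to 557 TPM elsewhere. Of 10 genes that SOX9, SOX5 and SOX6 activate in cartilage, 5 were higher and 1 lower in CHLA 05 than in CHLA 04, beside the same shares of all genes. COL11A1, a fibrillar collagen gene, reached 1070.2 TPM in CHLA 05, and no other library had more than 0.781 TPM. COL9A2, a chain of collagen IX, was not highest where SOX9 was, with 70.7 TPM in CHLA 02, 0.601 and 0.573 TPM in CHLA 04, 2.83 TPM in CHLA 05 and 143 and 103 TPM in CHLA 06. COL9A3, another chain, was at 8.53 TPM in CHLA 02, 0 and 0.292 TPM in CHLA 04, 33.7 TPM in CHLA 05 and 8.14 and 7.43 TPM in CHLA 06. HAPLN1, which links proteoglycans to hyaluronan, was at 294 to 403 TPM in all libraries but those of CHLA 06 (0.318 and 0.118 TPM). ACAN, which encodes the main cartilage proteoglycan and was named after its values were seen, stayed at 0.279 TPM or less in all libraries.

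The lists of SOX10 lineages were mixed. Of 13 oligodendrocyte lineage genes, 5 were lower and 1 (MBP) was higher in CHLA 06 than in CHLA 04 (20.2% and 14.5% of all genes), and 3 were higher in CHLA 05 than in CHLA 04 (12.1% of all genes). OLIG1, a factor of oligodendrocyte progenitors, was at 0.0657 TPM in CHLA 02, 2.28 and 0.968 TPM in CHLA 04, 31.9 TPM in CHLA 05 and 0 in CHLA 06, and CSPG4, the NG2 proteoglycan gene, reached 42.6 TPM in CHLA 05, with 3.81 TPM or less elsewhere. The myelin genes differed among themselves. MOG and MAG, named after their values were seen, were at 0.533 TPM or less in all libraries. MBP was at 31.9 TPM in CHLA 02, 0 in CHLA 04, 0.267 TPM in CHLA 05 and 23.9 and 22.3 TPM in CHLA 06. CNP was at 54.9 to 93.4 TPM in all libraries. Of 12 neural crest and Schwann cell genes, 4 were lower and 2 higher in CHLA 06 than in CHLA 04 (20.2% and 14.5% of all genes). TFAP2A, a neural crest factor, was at 71.1 TPM in CHLA 02, 148 and 130 TPM in CHLA 04 and 17.3 and 15.6 TPM in CHLA 06, but at 0.0560 TPM in CHLA 05, where SOX9 was highest.

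Markers of other cells moved with the lines. Of 7 fibroblast genes, 5 were higher and 1 was lower in CHLA 06 than in CHLA 04 (14.5% and 20.2% of all genes), and their TPM summed to 1265 in CHLA 02, to 24.0 and 13.7 in the CHLA 04 libraries, to 52.5 in CHLA 05 and to 1989.5 and 1134 in the CHLA 06 libraries. COL1A1 was at 387 TPM in CHLA 02, 2.76 and 0.679 TPM in CHLA 04, 11.5 TPM in CHLA 05 and 600.3 and 459 TPM in CHLA 06, the inverse of SOX8, SOX21 and SOX11 between CHLA 04 and CHLA 06. COL1A2, the partner chain of the same collagen, which was named after its values were seen, was at 0 and 0.0259 TPM in CHLA 06 and at 1.36 TPM in CHLA 02. The part of such cells or programs in the SOX differences was not tested. Of the 7 blood and endothelial genes, CD3E and HBB were at 0 in all libraries, PTPRC, PECAM1 and CDH5 were at 0.224 TPM or less, and the list summed to 0.423 to 22.7 TPM. VWF was at 0.778 TPM in CHLA 02, 3.70 and 2.06 TPM in CHLA 04, 0 in CHLA 05 and 0 and 0.0132 TPM in CHLA 06. CD3E, HBB and PECAM1 were named after their values were seen. The highest sum, in replicate 2 of CHLA 06, was 22.6 TPM of CD68, a macrophage gene that other cells also express.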

How the data were processed

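Total RNA (RNeasy plus kit) was made into TruSeq Stranded Total RNA libraries and sequenced as 125 bp pairs. Per the methods and labels, the authors used CASAVA 1.8.2, FastQC and Trimmomatic, ran the CLCbio Genomics Workbench at its default settings against GRCh38 (Ensembl release 82), and deposited transcript TPM and, scaled separately, LTR element TPM. Other versions and the handling of multi-mapped reads are not given in the sources used here.

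TPM was summed per gene. Reads (or pairs) were recovered from TPM times length, where 99.2% to 100% of values per library lay within 0.02 of a whole number. Technical replicates were averaged as log2(TPM + 1), and differences of 1 among genes with at least 1 TPM in a library were counted, with no p-value. Read recovery and the 2-fold count were tested on simulated data that held counting error only and no technical replicates. Python 3.11.15, numpy 2.4.6, pandas 2.3.3 and scipy 1.17.1 were used. The members, lists and comparisons were chosen with earlier results of these data known. Named were, per list, up to 4 genes with the highest TPM and up to 3 with the largest range over lines, and the 5 genes nearest to each member ranging by at least 2 (log2). Alternatives varied pseudocount, filter, threshold, normalization, transcript and replicates. A few genes that this rule names are not reported here.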

Additional observations from a re-analysis of the deposited data

How the results depend on the processing

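No difference past 2-fold changed sign under 12 alternative settings, and 684 of 720 member differences kept their side of the threshold (29 lost it and 7 gained it). The 720 include those of SOX10, which had at most 2 reads in a library and little room to pass. They also include, for each technical replicate left out, the pairs without its line, whose differences could not change. Dropping the filter on low values could alter SOX10 only, since the other members had passed it. With a threshold of 4-fold, the members counted fell in every pair, by construction. They were 2 in CHLA 05 minus CHLA 04, 2 in CHLA 02 minus CHLA 04 and 5 in CHLA 05 minus CHLA 02. SOX3 dropped out in CHLA 06 minus CHLA 04 and CHLA 05 minus CHLA 06, and SOX4 and SOX5 in CHLA 02 minus CHLA 06. With a filter at 5 TPM, which SOX2 and SOX3 never reached, these 2 genes were no longer counted in any pair. With 1 technical replicate left out, the counts were 5 to 8 in CHLA 02 minus CHLA 04 and 4 to 6 in CHLA 05 minus CHLA 04. They stayed at 7 in CHLA 02 minus CHLA 06, 9 in CHLA 05 minus CHLA 06 and 8 in CHLA 06 minus CHLA 04. CHLA 05 and CHLA 02 have 1 library each, so the count of 8 in their pair could not change. SOX3 lost its place in 3 pairs with a pseudocount of 2, and SOX2 passed 2-fold in CHLA 06 minus CHLA 04 (−1.22) with a pseudocount of 0.1, on at most 5 reads a library. On the most abundant transcript alone, SOX6 in CHLA 02 minus CHLA 06 (0.47) and SOX5 in CHLA 02 minus CHLA 04 (−0.999) were no longer past 2-fold, and after quantile normalization SOX4 passed in CHLA 05 minus CHLA 04 (1.03) and not in CHLA 02 minus CHLA 04 (−0.94). The cause was not tested. No paired analysis was possible because the results come from no test and the replicate numbers are those of technical replicates within a line.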
